A study of Mus musculus with 4 samples.

Results

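LSC-only regions are stretches of the mouse genome where a Sub1 peak was listed in both libraries of leukemia stem cells (LSCs) and in neither library of normal hematopoietic stem cells (HSCs). They were found by merging the peaks of the 4 deposited lists wherever peaks shared at least 1 bp on chromosomes 1 to 19, X and Y, which gave 285131 union regions, of which 985 (0.345%) met the rule. The regions were chosen by the presence of a listed peak in the libraries of each group, so the difference between LSCs and HSCs is how they were defined and carries no test. Of the 985, 298 lay within 1 kb of an annotated end of a gene (gene-end regions), 431 lay inside a gene and 256 were intergenic, by RefSeq genes placed on GRCm38.p6 (mm10). The table of genes used held no exons, so exon, intron and untranslated region could not be told apart.

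The HSC group was 2 libraries of bone marrow cells of Nup214 fl/+ mice, sorted as LSK cells without CD48 and with CD150. The LSC group was 2 libraries of bone marrow cells of Nup214 fl/+ mice with MLL-AF9-driven disease, sorted as Lin-, Sca-1-, c-Kit+, CD16/32+ and CD34+ cells. Both groups therefore carried 1 floxed Nup214 allele, and the labels name no Cre, no treatment, no age and no way in which MLL-AF9 was delivered. The cell type field reads hematopoietic stem cell for all 4 libraries. The sort of the LSCs matches granulocyte-monocyte progenitors rather than LSK cells, so position in the blood hierarchy and leukemia cannot be told apart. Whether both libraries of a group come from different mice is not stated, so their spread may be technical. All peaks are named with H4-Cut, for which no label gives a meaning, and that Sub1 was the target rests on the antibody named in the labels.

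Sub1, also called PC4, is a small nuclear protein that binds single-stranded DNA and acts as a cofactor of RNA polymerase II transcription, with further roles in replication, repair and chromatin. In CUT&Tag an antibody directs a transposase to its target in intact nuclei, and the tagged fragments are sequenced, so that places with many fragments are called as peaks. A peak present in 1 cell type and not in another marks a place where the caller's threshold was passed in 1 of them. It does not show that the protein is absent from the other.

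The lists differed in length and depth. The main chromosomes carried 115195 peaks of HSC 1, 234417 of HSC 2, 40743 of LSC 1 and 33885 of LSC 2. The sources used here do not state how many reads each library had. The authors' fold, the ratio of fragment pileup at the summit to background, moved in whole steps of 1 read over a constant background. This background was 3.07 reads per position for HSC 1, 7.47 for HSC 2, 4.54 for LSC 1 and 4.50 for LSC 2. The weakest listed summit held 15 reads for HSC 1, 24 for HSC 2 and 19 for each LSC library, so a place without a peak may still have held reads below these limits. All 7 genes of the sorting markers had a peak in or near the gene in each HSC list, and 5 of 7 in each LSC list, where Ly6a and Slamf1 had none. Of all protein-coding genes, 83.3% had a peak of either HSC list in or near the gene. The same share was not taken for the LSC lists, so these counts say little of the sort.

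Promoters under some of the stronger LSC-only regions are printed here because CpG content is what these promoters are later compared by. Most LSC-only regions lay over no promoter window, and some windows lay under a region only in part. The printed windows therefore do not show what the regions cover in general. Each is a RefSeq promoter window of GRCm38.p6, from 250 bases before to 50 after the start of the gene, 5′ to 3′ on the strand of the gene, with CpG pairs in capitals. The first 5 are those that lie under the 10 strongest gene-end regions and the 10 strongest regions inside genes. Gm10451, Gm16299 and 1700080G11Rik are long non-coding RNA genes. Pdia5 encodes a protein disulfide isomerase of the endoplasmic reticulum, and Rragb encodes a Rag GTPase that links amino acids to mTORC1.
1700080G11Rik, chr4:127474591-127474890, plus strand: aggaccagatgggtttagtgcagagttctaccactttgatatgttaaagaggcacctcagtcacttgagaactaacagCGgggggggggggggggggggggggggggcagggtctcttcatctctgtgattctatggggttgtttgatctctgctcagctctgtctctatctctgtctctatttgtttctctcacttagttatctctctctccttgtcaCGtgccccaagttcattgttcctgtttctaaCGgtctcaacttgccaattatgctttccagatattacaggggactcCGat
Gm10451, chr12:76444247-76444546, plus strand: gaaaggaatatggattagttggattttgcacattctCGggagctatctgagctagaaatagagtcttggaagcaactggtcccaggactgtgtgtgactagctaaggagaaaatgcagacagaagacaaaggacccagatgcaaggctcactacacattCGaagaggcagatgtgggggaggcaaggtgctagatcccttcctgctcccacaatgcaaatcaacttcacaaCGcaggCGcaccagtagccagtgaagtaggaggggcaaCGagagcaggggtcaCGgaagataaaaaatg
Gm16299, chr19:53825163-53825462, minus strand: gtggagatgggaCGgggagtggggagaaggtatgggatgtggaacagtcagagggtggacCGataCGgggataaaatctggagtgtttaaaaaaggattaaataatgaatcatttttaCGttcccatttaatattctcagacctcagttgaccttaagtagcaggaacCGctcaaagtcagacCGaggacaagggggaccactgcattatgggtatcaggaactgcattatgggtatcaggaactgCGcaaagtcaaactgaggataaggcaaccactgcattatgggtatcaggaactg
Rragb, chrX:153139708-153140007, plus strand: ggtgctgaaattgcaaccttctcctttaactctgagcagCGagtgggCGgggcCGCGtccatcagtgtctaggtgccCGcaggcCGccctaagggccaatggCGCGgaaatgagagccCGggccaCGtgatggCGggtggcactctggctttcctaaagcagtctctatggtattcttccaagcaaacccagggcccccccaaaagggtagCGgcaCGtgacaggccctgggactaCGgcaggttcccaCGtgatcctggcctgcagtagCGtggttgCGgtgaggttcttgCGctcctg
Pdia5, chr16:35490824-35491123, minus strand: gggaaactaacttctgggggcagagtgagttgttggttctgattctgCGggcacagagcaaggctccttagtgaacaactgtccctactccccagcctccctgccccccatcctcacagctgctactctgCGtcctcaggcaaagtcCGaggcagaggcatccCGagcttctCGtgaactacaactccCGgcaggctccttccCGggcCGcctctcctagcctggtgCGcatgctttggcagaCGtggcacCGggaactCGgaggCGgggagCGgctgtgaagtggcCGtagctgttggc

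A second set, chosen after its values were seen, shows promoters of a gene without any HSC peak, of a receptor gene and of zinc finger genes. Xlr4a is a gene of the X-linked lymphocyte-regulated family, whose members are near-identical copies. Fgfrl1 encodes a receptor of the fibroblast growth factor family. Zfp105, Zfp109 and Zfp964 encode zinc finger proteins.
Xlr4a, chrX:73082458-73082757, minus strand: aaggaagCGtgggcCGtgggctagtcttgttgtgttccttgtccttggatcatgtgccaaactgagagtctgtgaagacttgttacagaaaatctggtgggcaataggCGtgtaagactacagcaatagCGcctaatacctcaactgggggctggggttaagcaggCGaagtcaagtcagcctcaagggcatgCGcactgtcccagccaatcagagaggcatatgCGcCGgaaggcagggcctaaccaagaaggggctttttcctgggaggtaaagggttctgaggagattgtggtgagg
Fgfrl1, chr5:108693979-108694278, plus strand: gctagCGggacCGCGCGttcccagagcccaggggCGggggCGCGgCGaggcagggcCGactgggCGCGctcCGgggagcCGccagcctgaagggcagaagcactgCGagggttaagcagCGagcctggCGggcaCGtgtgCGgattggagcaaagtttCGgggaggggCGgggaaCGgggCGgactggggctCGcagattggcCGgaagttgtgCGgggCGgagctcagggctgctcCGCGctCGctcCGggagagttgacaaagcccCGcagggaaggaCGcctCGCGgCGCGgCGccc
Zfp105, chr9:122922828-122923127, plus strand: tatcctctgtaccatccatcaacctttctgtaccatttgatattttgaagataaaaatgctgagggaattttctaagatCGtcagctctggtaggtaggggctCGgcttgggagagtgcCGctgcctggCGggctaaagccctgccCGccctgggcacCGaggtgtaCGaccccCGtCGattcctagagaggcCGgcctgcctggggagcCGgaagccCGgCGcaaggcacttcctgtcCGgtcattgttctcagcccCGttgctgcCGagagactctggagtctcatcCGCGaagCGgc
Zfp109, chr7:24237549-24237848, minus strand: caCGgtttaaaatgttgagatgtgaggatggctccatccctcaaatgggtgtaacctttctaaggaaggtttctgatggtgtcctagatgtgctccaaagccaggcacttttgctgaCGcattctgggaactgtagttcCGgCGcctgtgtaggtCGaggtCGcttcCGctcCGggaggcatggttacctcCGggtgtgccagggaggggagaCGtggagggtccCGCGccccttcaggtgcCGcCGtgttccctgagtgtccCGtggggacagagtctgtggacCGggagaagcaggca
Zfp964, chr8:69654306-69654605, plus strand: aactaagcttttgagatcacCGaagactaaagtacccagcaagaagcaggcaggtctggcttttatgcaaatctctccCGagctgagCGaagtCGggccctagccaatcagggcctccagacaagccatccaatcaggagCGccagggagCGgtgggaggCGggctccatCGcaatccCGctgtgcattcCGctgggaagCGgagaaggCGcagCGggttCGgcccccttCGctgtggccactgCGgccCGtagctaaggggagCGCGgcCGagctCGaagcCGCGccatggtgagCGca
The 10 windows held from 4 CpG pairs at 1700080G11Rik to 37 at Fgfrl1. Xlr4a held 8, Zfp109 16, Zfp105 19 and Zfp964 24.

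LSC-only regions were a small part of the union and the smallest of the 6 kinds of region found in exactly 2 libraries. The 985 regions compare with 22213 regions (7.79% of the union) listed for both HSC libraries and neither LSC library, called HSC-only here. Pairs of 1 HSC and 1 LSC list alone had 1528, 1242, 3008 and 1747 regions. Of the 18517 regions with a peak in both LSC lists, 5.32% had none in either HSC list, and 15337 were found in all 4 lists. By position, 30.3% were gene-end regions (95% Wilson interval 27.5 to 33.2, counting error only), against 15.5% to 19.1% in the other 5 kinds of region found in exactly 2 lists. Both kinds found in both LSC lists and 1 HSC list had similar shares, 32.7% with HSC 1 and 28.5% with HSC 2, and regions found in all 4 lists had 68.9%. No test was made, since a two-sided exact permutation test of 2 libraries against 2 cannot give a p below 0.33.

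The number of LSC-only regions turned on the lists used. Without HSC 1 it was 1821, without HSC 2 it was 2651, without LSC 1 it was 4124 and without LSC 2 it was 9066. In lists cut to the 33885 strongest peaks of each library it was 3826, and HSC-only regions then numbered 1755, so that the direction of the difference turned. This cut left the LSC 2 list whole and shortened the HSC lists most. With −log10 q of at least 10 in all lists the direction stayed, at 1024 LSC-only and 17659 HSC-only regions. The share at gene ends was 30.8% in lists of equal length, against 18.9% for HSC-only regions. Without LSC 1 and without LSC 2 that share was 19.6% and 17.8%, when a peak in a single LSC list was enough.

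**Figure D1:**
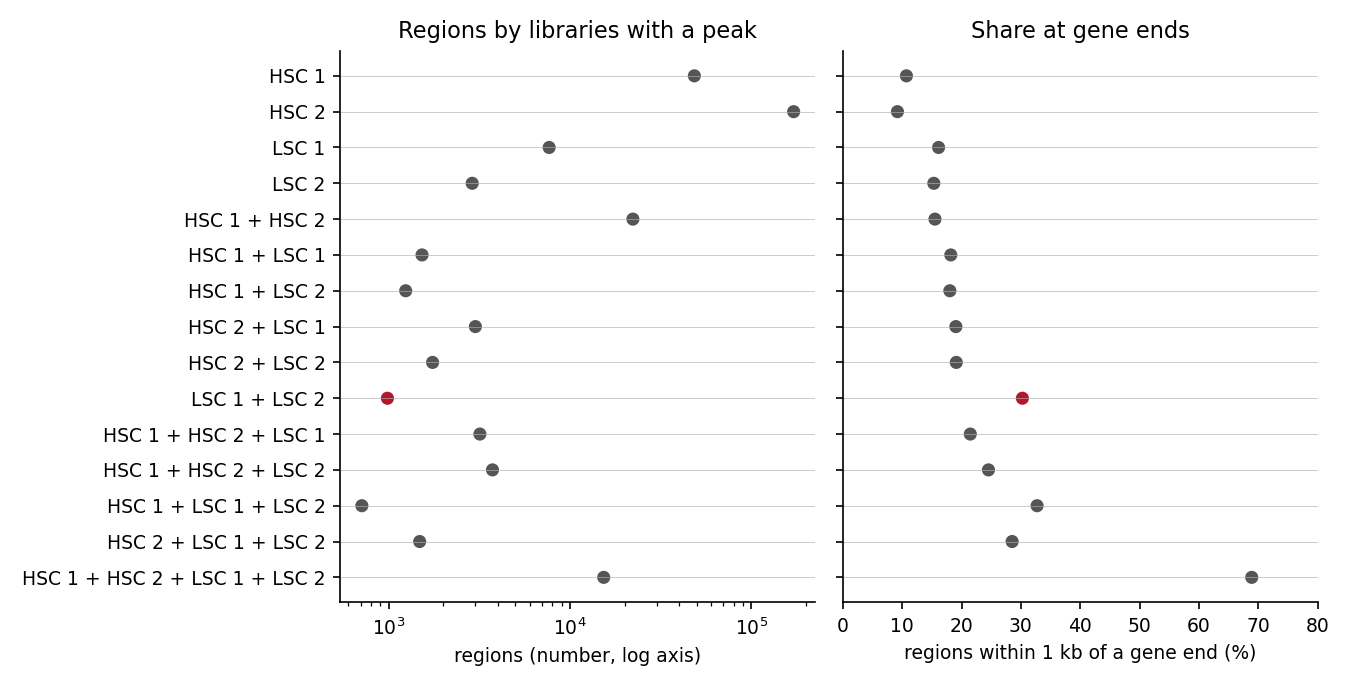
Each row is 1 of the 15 combinations of libraries with a peak; the left panel gives the number of union regions on a log axis and the right panel the share of them within 1 kb of a gene end. LSC-only regions (red) number 985, fewer than any other pair, and 30.3% of them lie at gene ends, against 68.9% of regions in all 4 lists.

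Most LSC-only regions held weak to middling LSC peaks, and none ranked among the strongest. The fold had a median of 9.56 in LSC 1 and 6.54 in LSC 2, with highest values of 113 and 81.1. In regions that were also listed in an HSC library the medians were 45.6 and 29.8. At the summit, LSC-only regions held a median of 52 reads in LSC 1 and 35 in LSC 2. Of the 985 regions, 575 lay in the stronger part of the LSC 1 list divided at its middle rank, and 363 in that of LSC 2, and none in the strongest 10% of either list. A fold of at least 10 in both LSC lists was found in 156 regions, and of at least 20 in both in 31. The fold was higher in LSC 1 than in LSC 2 in 79.2% of the regions, and in 83.7% of regions shared with HSCs, so the excess was not particular to LSC-only regions.

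The LSC 1 and LSC 2 peaks of a region overlapped by the rule in most cases, which with short peaks also holds their summits close. The distance between the LSC 1 and LSC 2 summits of a region had a median of 148 bp and was at most 250 bp in 699 regions (71.0%), close to the 69.9% of regions shared with HSCs. Each LSC list gave a single peak in 968 of the 985 regions. Across the 985 regions the log2 folds of LSC 1 and LSC 2 had a Pearson correlation of 0.65, against 0.95 across 17532 regions shared with HSCs, which span a wider range. These are correlations across regions of the same libraries and say nothing of mice. The peaks were short, with a median of 591 bp in LSC 1 and 568 bp in LSC 2, against 1659 and 1785 bp in regions shared with HSCs. Within 5 groups of equal size by the weaker LSC rank the gap was smaller. In the middle group the medians were 1110 and 1065 bp against 1649.5 and 1720.5 bp. In the next group they were 692 and 627.5 against 820 and 887 bp, and in the weakest 467.5 and 495.5 against 479.5 and 578 bp.

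**Figure D2:**
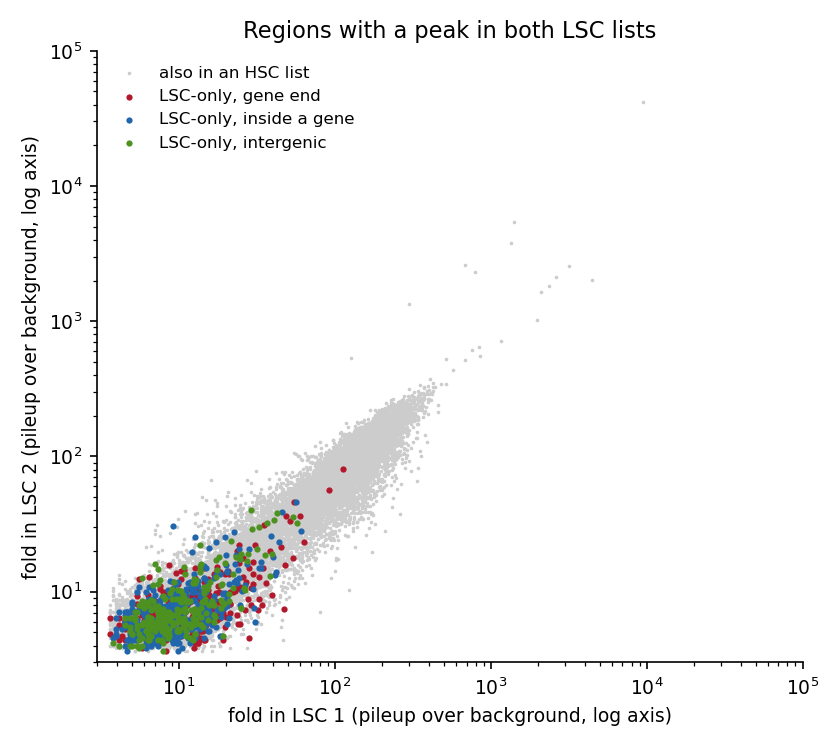
Each point is a region with a peak in both LSC lists, placed by the authors' fold in LSC 1 and LSC 2, both on log axes. LSC-only regions of all 3 positions gather at the low end, with medians of 9.56 and 6.54, and the highest lies at 113 and 81.1.

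The share of LSC regions that were LSC-only rose as peaks became weaker, and the difference between positions narrowed. Regions of both LSC lists were put in 5 groups of equal size by the weaker of their ranks in LSC 1 and LSC 2. In the strongest group 0 of 3704 were LSC-only, and in the next 2 of 3703. In the middle group 1.37% of gene-end regions, 3.88% of those inside genes and 6.10% of intergenic regions were LSC-only. In the weakest group the shares were 13.8%, 12.8% and 16.0%. Over all strengths they were 2.59%, 8.94% and 11.8%. Gene ends thus held few LSC-only regions in proportion, at 298 of 11518, while most of the strong LSC peaks lay there.

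**Figure D3:**
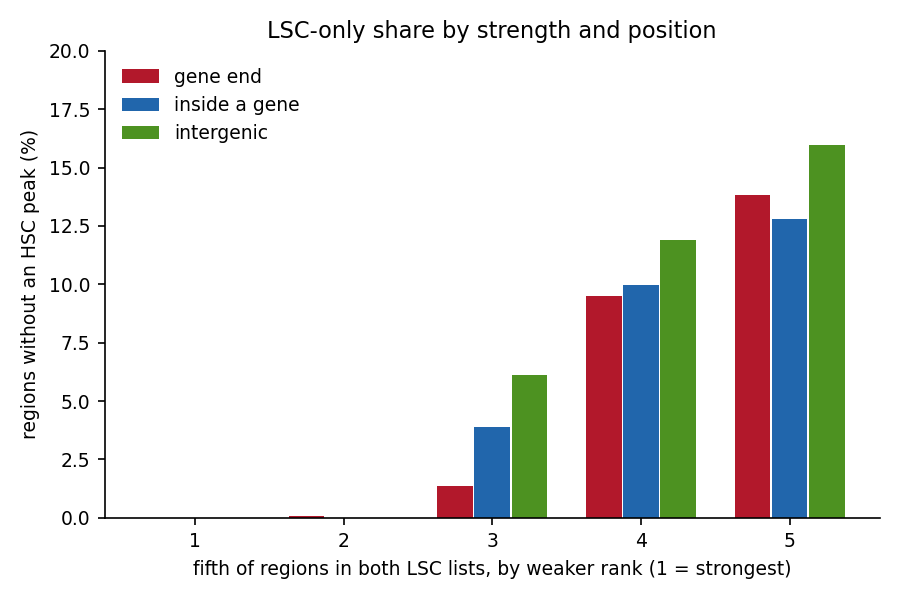
Bars give the percentage of regions in both LSC lists that had no HSC peak, in 5 groups of equal size by strength (1 is the strongest), for gene-end, inside and intergenic regions. The bars are at or near 0 in the groups 1 and 2 and reach 13.8%, 12.8% and 16.0% in group 5.

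Of the 10 leading gene-end regions, 4 lay at long non-coding RNA genes, 2 at T cell receptor segments, 1 at a zinc finger gene and 3 at other protein-coding genes, of which the region at Myef2 also lay near an end of the long non-coding RNA gene Gm46759. The strongest LSC-only region of all ran from 127474721 to 127480049 on chromosome 4, over the start of 1700080G11Rik. It was 5329 bp long and held 623 reads at the summit in LSC 1 and 445 in LSC 2, which are folds of 113 and 81.1. The nearest HSC 1 and HSC 2 peaks lay 6001 and 6877 bp away, and the nearest protein-coding gene, Gjb5, lay 116557 bp away. The next region, from 48621284 to 48623401 on chromosome 6 at an end of the zinc finger gene Zfp775, had folds of 92.0 and 56.7 and LSC summits only 6 bp apart. Gm10451, on chromosome 12, followed with folds of 59.7 and 36.3, 4550 bp from Ppp1r36. The nearest HSC peak lay 4572 bp from the Zfp775 region and 5011 bp from the Gm10451 region.

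Segments of the T cell receptor alpha locus on chromosome 14 carried a group of LSC-only regions. The region at Trav13-5 (53795082 to 53796057) had 302 and 253 reads at the summit, folds of 54.6 and 46.2. The region at Trav13-4-dv7 (53757122 to 53758872) had folds of 35.4 and 30.9. Trav13n-4 had folds of 22.9 and 10.2, and Trav13d-4 13.7 and 9.27. These segments encode variable parts of the receptor alpha chain and are close copies of each other, so reads could be placed at any of them and the 4 regions cannot be counted as separate. Of 271 T cell receptor segments, 4 (1.48%) had an LSC-only region at an end, against 0.683% of all RefSeq genes, and 2 (0.738%) had a region shared by LSCs and HSCs, against 29.3%. No gene of the list of T and NK cell markers had one.

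Other leading gene-end regions lay at genes of different kinds. Pdia5 had 350 and 128 reads at the summit, folds of 63.3 and 23.4, over its start. Gm16299, an RNA gene inside Rbm20, which encodes a splicing factor of heart muscle, had folds of 48.5 and 36.3 with both summits at the same base, and an HSC 2 peak 227 bp away. Slco5a1, which encodes an organic anion transporter family member, had folds of 45.3 and 21.4 and no HSC peak within 18957 bp. Gm39143 had folds of 51.6 and 33.4, but an HSC 2 peak began 20 bp away. The region near the start of Myef2, a repressor of myelin genes, had folds of 31.0 and 22.2 and an HSC 2 peak 445 bp away. At Gm39143, Gm16299 and Myef2 an HSC peak thus lay within 1 kb of a strong LSC-only region.

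Zinc finger genes, many of which encode transcriptional repressors, recurred among gene-end regions, though far more of them had regions shared with HSCs. Of 491 genes with such names (Zfp, Zkscan, Zscan, Zik, Zbtb), 13 had an LSC-only region at an end, 2.65% against 0.683% of all 49943 RefSeq genes. Of the same genes 365 (74.3%) had a region shared by LSCs and HSCs at an end, against 29.3% of all genes. Among protein-coding genes, a closer comparison, these shares were 0.927% for LSC-only and 50.7% for shared regions. On chromosome 7, the neighbours Zfp114, Zfp109 and Zfp108 had 1 LSC-only region each within 100 kb. Their folds were 24.0 and 5.82 at Zfp114, 33.5 and 14.9 at Zfp109 and 12.6 and 12.5 at Zfp108, in LSC 1 and LSC 2. The nearest HSC peaks were 3099, 7636 and 5199 bp away. Zfp105 had 267 and 85 reads at the summit, folds of 48.3 and 15.6, and Zik1 28.1 and 14.9. Zinc finger genes are close in sequence to each other, so some of these reads may belong to a relative.

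Genes with an LSC-only region at an end had an HSC peak at an end about as often as all genes did. Of 21887 protein-coding genes, 203 (0.927%) had an LSC-only region at an end, and 143 of them had an HSC peak within 1 kb of an end as well. With peaks inside the gene counted, 188 of 203 had an HSC peak, which left 15 genes without one. These shares are 70.4% and 92.6%, against 70.7% and 83.3% of all protein-coding genes, and gene length was not matched. Among the 15, chosen for description after their values were seen, Xlr4a came first by its weaker rank in the LSC lists, with 213 and 110 reads at the summit and folds of 38.6 and 20.2. Armcx4, of an X-linked family of armadillo-repeat genes, had 262 and 40 reads, folds of 47.4 and 7.45. Zfp114 and Zfp964, a zinc finger gene on chromosome 8, had folds of 24.0 and 5.82, and of 23.3 and 10.7. Cldn23, a tight junction gene, had 18.9 and 8.18, and Sowahd 14.8 and 4.36. Irx3, a homeobox gene of patterning, had 46 and 52 reads, folds of 8.48 and 9.63, over its start. Cdkn1c, which encodes the cell cycle inhibitor p57 known for HSC quiescence, had 56 and 35 reads, folds of 10.3 and 6.54. The HSC peak nearest to the Cdkn1c region was 1515 bp away, beyond the gene and its 1 kb margin. The other members of the 15 were Alpi, C130074G19Rik, Fam170a, Gm14288, Gm14440, Olfr1033 and Zkscan16, with folds from 5.41 to 10.8 in LSC 1 and from 4.54 to 14.4 in LSC 2. The promoter windows of Gm14288 and Gm14440 hold the same sequence but for a small shift. Reads could be placed at either, so this pair cannot be counted as separate genes. Xlr4a likewise belongs to a family of near-identical copies. For regions inside genes, 357 of 360 protein-coding genes also had an HSC peak, the others being Dppa3, Mfap5 and Gm40514.

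LSC-only gene-end regions lay at listed starts less often than shared ones did over all strengths, but not within groups by strength. Starts were taken from the RefSeq promoter table, which was used for all main chromosomes except 18. It held 27025 genes, against 49943 RefSeq genes in the annotation. A region at a gene missing from it counted as not at a start, so the shares mix position with missing starts. Of 287 gene-end regions on those chromosomes, 147 (51.2%) lay within 1 kb of a start, against 74.5% of 10965 regions shared with HSCs. In the middle group by strength the shares were 80.6% of 31 LSC-only regions and 72.6% of 2310 shared ones, in the next 57.5% of 113 and 49.9% of 1113, and in the weakest 39.7% of 141 and 30.6% of 891. In each of these groups the LSC-only share was the higher. Strength still differed within the middle group, where the median folds of all LSC-only regions were 26.7 and 16.7 and those of shared regions 37.9 and 25.1. No test was made, since regions are not replicates.

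Promoters under LSC-only regions were richer in CpG pairs than those under HSC-only regions, without any matching on the strength of HSC peaks. LSC-only regions overlapped 143 promoter windows of 132 genes, and the windows held a median of 14 CpG pairs. Most of the regions lay over no window: of the 287 gene-end regions that could be compared with the promoter table, 102 (35.5%) lay over one. Promoters under HSC-only regions (439 windows) held a median of 5, all 32851 RefSeq promoters 7, and promoters under regions shared by LSCs and HSCs (12299 windows) 21. At least 10 CpG pairs were found in 65.7% of the LSC-only windows, 22.3% of the HSC-only, 43.5% of all and 82.6% of the shared ones. GC content followed, with medians of 58.3%, 52.0%, 52.7% and 61.0% in the same order. Within the same groups by strength the median of the LSC-only windows was 15.5 in the middle group (30 windows), 14 in the next (70) and 15 in the weakest (42). That of the shared windows went from 20 (2315 windows) to 11 (640) and 6 (264). Over these groups together the medians were 14.5 for LSC-only and 17 for shared windows, and 66.2% and 69.5% held at least 10 pairs. The 10 windows printed above do not span the range of the 143. They went from 1700080G11Rik with 4 pairs to Fgfrl1 with 37, while Gm39692 held 1 and Pitpnm2 53. At Fgfrl1 the region had folds of 30.1 and 16.7, and the nearest HSC peak lay 357 bp away.

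**Figure D4:**
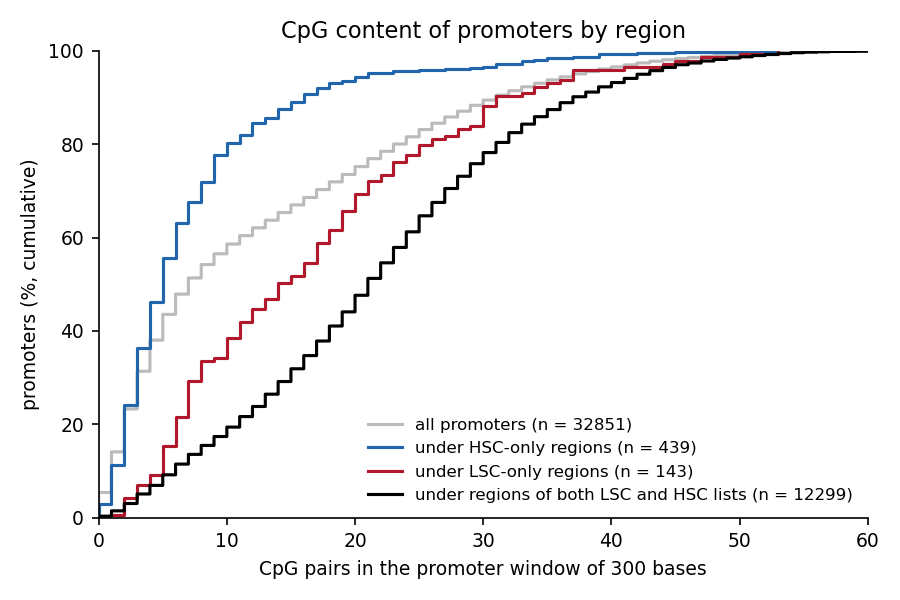
The curves give the cumulative percentage of RefSeq promoter windows of 300 bases by the number of CpG pairs they hold. The curve of windows under LSC-only regions (median 14) lies between that of all promoters (median 7) and that of regions shared by LSCs and HSCs (median 21), and that of windows under HSC-only regions (median 5) rises earliest, farthest to the left.

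Of 7 short motifs of transcription factors, all but the E-box were found in shares of these windows within 3 percentage points of all promoters. Motifs were searched on both strands, and a match is a description of letters only. The RUNX motif TGTGGT was in 18.2% of the 143 windows and 16.8% of all promoters, the ETS motif AGGAAGT in 9.09% and 9.35%, and the GATA motif AGATAA in 10.5% and 11.2%. The CEBP motif TTGCNNAA was in 10.5% and 10.8%, the AP-1 motif TGANTCA in 4.90% and 7.81%, and the HOX-MEIS motif TGATTTA in 2.80% and 2.97%. The E-box CANNTG, a short and common motif, was in 79.7% and 72.3%. Promoters under regions shared by LSCs and HSCs held RUNX in 12.5%, GATA in 5.89% and the E-box in 62.5%. Under HSC-only regions the shares were 19.8%, 10.5% and 76.5%, so the higher shares were not particular to LSC-only regions.

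Regions inside genes were the largest class and were led by Rftn1, Cacna1f and Ahi1. The Rftn1 gene, which encodes raftlin, a protein of lipid rafts, held 3 LSC-only regions. The strongest ran from 50075923 to 50079140 on chromosome 17, with 311 and 254 reads at the summit, folds of 56.3 and 46.3, and an HSC 2 peak 3622 bp away as its nearest. The other 2 had folds of 7.58 and 8.54, and of 6.85 and 5.09. Cacna1f, a calcium channel gene of the retina, had folds of 45.6 and 38.9 on the X chromosome (7632519 to 7634173). Ahi1, a gene of the primary cilium, had a region of 3974 bp from 20966228 to 20970201 on chromosome 10, with 336 and 153 reads at the summit and both summits at the same base. HSC 1 and HSC 2 peaks lay 1086 and 1479 bp from it.

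The next regions inside genes held at least 91 reads at the summit in both LSC lists. Rragb had folds of 39.3 and 25.6, over one of its annotated starts inside the gene, 217378 bp from the nearest HSC 1 peak and 5515 bp from the nearest HSC 2 peak. Phlpp2, which encodes a phosphatase of Akt, had folds of 43.8 and 23.4. Rora, a nuclear receptor gene, had 28.3 and 20.7, with an HSC 2 peak 298 bp away. Hif3a, of the hypoxia-inducible factor family, had 33.5 and 16.7, and Itgb5, an integrin gene, had 24.7 and 17.4 with an HSC 2 peak 193 bp away. Gm46430 and Gm41228 had 40.2 and 18.2, and 24.3 and 20.5. Of the 431 regions inside genes, 370 lay in a protein-coding gene, and the fold had a median of 9.02 in LSC 1 and 6.36 in LSC 2.

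Intergenic regions mostly had a gene in their neighbourhood. The distance to the nearest gene had a median of 9521 bp, and to the nearest protein-coding gene 18439.5 bp. A gene lay within 10 kb of 134 of the 256 regions and within 100 kb of 253. The strongest, on chromosome 11 from 114071931 to 114073164, lay 4902 bp from Sdk2, an adhesion gene of synapses, with 298 and 196 reads at the summit and folds of 53.9 and 35.8. A region 10687 bp from Sfpq, which encodes a splicing factor, had folds of 57.4 and 32.0 and an HSC 2 peak 91 bp away. Regions 8453 bp from Tmem123 and 2820 bp from Adcy10, a soluble adenylyl cyclase gene, had folds of 42.9 and 38.0, and of 40.8 and 33.8. The region 2969 bp from Appl2, an endosomal adaptor gene, had 39.5 and 19.1.

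Other intergenic regions stood out by their surroundings, and were chosen after these were seen. On chromosome 19, a region of 3997 bp from 13389140 to 13393136 among olfactory receptor genes had 162 and 160 reads, folds of 29.4 and 29.3. The nearest HSC peak was 12923 bp away and the nearest region shared by LSCs and HSCs 587409 bp. On chromosome 8, the region from 71779566 to 71781896 was the only one of the 10 strongest intergenic regions with a higher fold in LSC 2 (29.2 and 40.5). On chromosome 12, 3 intergenic regions lay in a row between 108074377 and 108079503, from 26928 to 31586 bp from Setd3, a histidine methyltransferase gene. Their folds were 6.31, 10.5 and 21.6 in LSC 1 and 5.45, 8.90 and 23.6 in LSC 2. The nearest HSC peak to each was between 4297 and 8955 bp away.

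Genes of the blood and leukemia lists were mostly without an LSC-only region. Over all protein-coding genes, 3.69% had one at an end, inside, or as the nearest gene of an intergenic region within 100 kb. None of 34 MLL fusion target genes had one, and none of 33 genes of granulocyte-monocyte progenitors and granules, 21 mast cell, basophil and eosinophil genes, 27 T and NK cell genes, 7 sorting marker genes or 20 neuronal genes. Of 36 genes of the HSC programme, 4 had one: Cdkn1c at an end, and Erg, Etv6 and Vwf inside. Erg, an ETS factor of stem cells, held a region with folds of 10.1 and 4.18, and was the nearest gene of 2 intergenic ones, 14094 and 16481 bp away. These had folds of 13.7 and 15.4, and of 6.49 and 4.54. The region in Etv6, another ETS factor, had folds of 10.5 and 6.54, and that in Vwf, which encodes von Willebrand factor, 8.30 and 5.27.

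Other lists had from 1 to 3 members with LSC-only regions. Of 35 myeloid leukemia genes, 3 had one inside: Etv6, Asxl2 and Bcor, the last 2 being chromatin regulators, with folds of 7.94 and 7.63 at Asxl2 and 12.1 and 10.7 at Bcor. HSC peaks lay 43 bp from the Asxl2 region and 240 bp from the Bcor region. Of 51 ferroptosis and glutathione genes, Gch1 and Gsr had one inside and Cyb5r1 was the nearest gene of 1. Gch1, which starts the synthesis of tetrahydrobiopterin, had folds of 13.3 and 8.90, with an HSC peak 289 bp away. Gsr, glutathione reductase, had 4.87 and 4.54, near the lowest folds listed, with an HSC peak 35 bp away. The region 5201 bp from Cyb5r1, an oxidoreductase gene, had 82 and 37 reads at the summit. Of 30 nuclear pore genes in the annotation, Nup160 was the nearest gene of 1 region, 3278 bp away with folds of 14.8 and 8.36, and Nup214 had none.

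Markers of other cell types that a sort could hold were as rare. One gene each had an LSC-only region inside among 18 B cell genes (Bank1, folds 9.56 and 9.45, no HSC peak within 28040 bp), 20 monocyte and macrophage genes (Mrc1, 13.9 and 6.91) and 27 erythroid and megakaryocyte genes (Vwf). Of 21 endothelial and stromal genes Flt1, a receptor of vascular endothelial growth factor, had one at its start with folds of 4.51 and 6.00 and another inside with 10.5 and 6.72. A list's share from 0 to 11.1% rests on at most 4 genes, so no list was set apart from the 3.69% of all genes.

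LSC-only regions were spread over the genome. On the autosomes and X, from 3.76 (chromosome 4) to 7.40 (chromosome 12) of 100 regions in both LSC lists were LSC-only, and chromosome Y had none of 2. They were also scattered within chromosomes: 10 places held 3 of them within 100 kb and none held more. Besides the places at Zfp108, Rftn1 and Setd3, 3 Armcx genes on the X chromosome had 1 each over or near their starts. Their folds were 47.4 and 7.45 at Armcx4, 36.1 and 11.6 at Armcx1 and the Armcx6 region held 73 and 43 reads at the summit. On chromosome 6, Klrb1f and Clec2f, a lectin-like receptor gene of NK cells and a gene of the related Clec2 family, had regions with 189 and 43, and with 65 and 62 reads at the summit, and 1 more region lay 5061 bp from Klrb1f. HSC peaks lay 103 and 700 bp from the Klrb1f and Clec2f regions. Fhad1 held 3 regions, with folds of 7.21 to 10.8 in LSC 1 and 5.82 to 6.36 in LSC 2. Phf21b held 1 over its start (9.92 and 11.4) and 1 just outside (4.51 and 6.18). Of 1428 olfactory receptor genes, 1 had an LSC-only region at an end (0.0700%, against 0.683% of all RefSeq genes). Regions shared by LSCs and HSCs were rare there too, at an end of 2 of these genes (0.140%, against 29.3% of all). Of 1193 microRNA genes, 4 (0.335%) had an LSC-only region at an end, also below 0.683%, and 241 (20.2%) had a shared one, against 29.3%. Of 1005 microRNA hairpins in the RefSeq table, 2 lay under LSC-only regions, Mir7229 and Mir3547, and no like share over all genes was taken.

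Most of these regions had an HSC peak close by. The nearest peak of either HSC list lay at a median of 919 bp, that of HSC 1 at 2948 bp and that of HSC 2 at 1420 bp. An HSC peak lay within 1 kb of 514 of the 985 regions (52.2%), within 5 kb of 839 (85.2%) and within 10 kb of 925 (93.9%). The same shares were not taken for other places of the genome, and the HSC lists held 115195 and 234417 peaks. Nearness to an HSC peak is thus not shown to be particular to LSC-only regions. By position, 51.0% of gene-end regions, 57.3% of those inside genes and 44.9% of intergenic ones had an HSC peak within 1 kb. The strongest HSC peak within 1 kb of a region had a median fold of 7.37 in HSC 1 and 7.97 in HSC 2. Over all peaks of the lists the medians were 7.37 and 5.90, which are not a like comparison, since a strongest neighbour was taken from several. Regions shared by LSCs and HSCs were farther off, at a median of 19494 bp, and were far fewer than HSC peaks, at 17532.

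**Figure D5:**
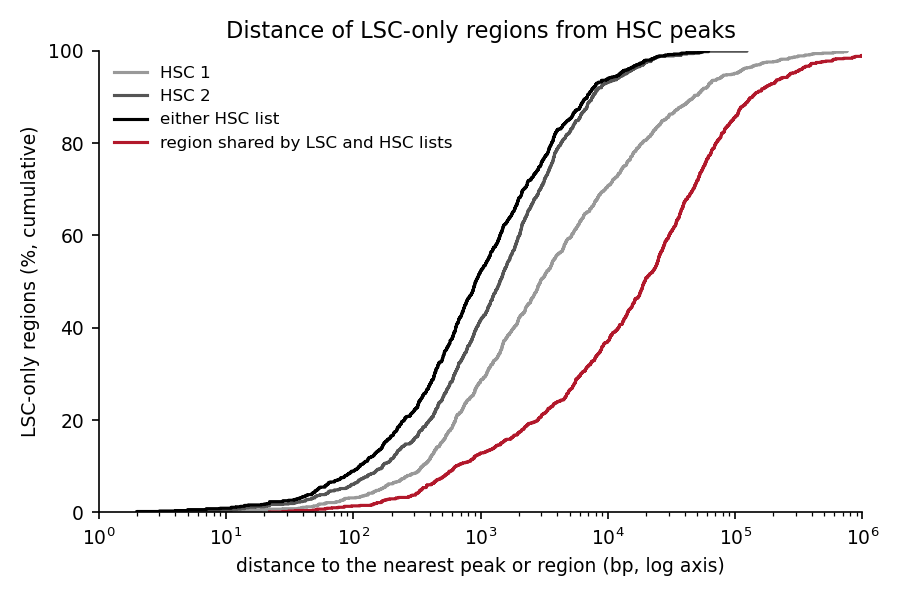
The curves give the cumulative percentage of the 985 LSC-only regions by the distance in bp, on a log axis, to the nearest HSC 1 peak, HSC 2 peak, peak of either list and region shared by LSC and HSC lists. The curve for either HSC list passes 52.2% at 1 kb and 93.9% at 10 kb.

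The rule drew a line through a continuum of such distances. Just inside it, regions in Rab3ip and Rab5b lay 2 bp from an HSC peak, with folds of 7.76 and 6.00, and of 6.31 and 4.72, and an intergenic region on chromosome 9 lay 3 bp away. Just outside, regions in Slc12a4, Abcd2 and Selenbp1 overlapped an HSC peak by 1, 2 and 3 bp, with folds of 4.15 and 4.00, of 5.59 and 6.00, and of 6.67 and 6.54. Within 100 bp of the line lay 88 LSC-only regions and 134 regions of both LSC lists whose overlap with an HSC peak was at most 100 bp. With peaks within 1 kb of each other merged, 452 of the 985 remained LSC-only. Of the 30 strongest regions, 10 in each position, 20 remained. Those lost were at Gm39143, Gm16299, Myef2, Rora, Hif3a and Itgb5 and near Sfpq, Tmem123, Gm525 and Appl2. Under all 6 changes of overlap, threshold and list length together 268 of the 985 remained, among them 18 of the 30.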

How the data were processed

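The members, gene lists and tests were chosen with earlier results of these data known. The submitters' processing notes name FastQC 0.11.5, Bowtie2 2.2.9, MACS2, ChIPseeker and the mm10 build, without their order, and 1 peak list was deposited per library. The handling of duplicate reads, any control library and the MACS2 version are not given in the sources used here. The authors' lists give for each peak a fold (a ratio of pileup to background), −log10 p, −log10 q and a deposited score, which follows 10 times −log10 q but for rounding. The lowest deposited −log10 q was 5.21, 5.26, 5.36 and 5.41 in HSC 1, HSC 2, LSC 1 and LSC 2. Higher depth lowers the fold at which a peak can be called, so the lists are not equally sensitive.

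From these lists, peaks were merged at 1 bp of overlap, and each region was classed by both annotated ends of RefSeq genes (GRCm38.p6), at 1 kb. The strongest peak of a region by −log10 p gave its fold, rank and summit. Reads at the summit are the fold times (background + 1), less 1. For folds under 100 all values were whole within 0.05 reads (100%). Regions named are the 10 of each position whose weaker rank in the LSC lists was best, those of the gene lists, the places with most regions and those nearest the limits of the rule, with genes lacking any HSC peak, members of gene families and the tied places added after the values were seen. The steps were checked against a direct count on simulated intervals. Alternatives were other overlaps, thresholds, windows, gene sets and list lengths, and leaving out each library. Computations used pandas 2.3.3 and NumPy 2.4.6 under Python 3.11.15, intervals came from SciPy 1.17.1, and plots from matplotlib 3.10.9. A genome sequence was not used here, so motifs were searched in promoter windows alone.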

Additional observations from a re-analysis of the deposited data

How the results depend on the processing

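The number of LSC-only regions, 985, stayed within 1.5 times under 4 of 11 alternatives (−log10 q of at least 10 in all lists or in the LSC lists, LSC peaks that overlap by 50% of both, autosomes only). It was 1996 with summit windows of 250 bp on each side in place of peaks, 476 with peaks within 1 kb merged, 3826 in lists of equal length, and from 1821 to 9066 with each library left out. The share at gene ends was 45.5% with ends within 3 kb and 20.0% with protein-coding genes only. It was 18.2% with starts of the promoter table only (without chromosome 18) and from 17.8% to 30.8% with each library left out. The share inside genes was 34.0% with ends within 3 kb, 53.7% with starts only and from 44.8% to 55.4% with each library left out. The intergenic share was 20.5% with ends within 3 kb, 39.0% with protein-coding genes only and from 24.3% to 26.8% with each library left out. With summit windows 34.4% lay at gene ends and 23.2% were intergenic, and with peaks within 1 kb merged 38.4% lay inside genes and 30.5% were intergenic, all outside the counting interval of the share reported. With both −log10 q settings, with autosomes only and in lists of equal length, all 3 shares stayed within it. A wider window or fewer genes moves regions between positions by construction. The cause of the other shifts was not tested. No paired analysis was possible because no result comes from a test, and nothing in the labels ties libraries of the same number. Each list has a floor: the weakest listed summit held 15 reads in HSC 1, 24 in HSC 2 and 19 in each LSC library. A place below its floor is not listed, and the effect of this on the regions was not tested.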
